A study of Mus musculus with 8 samples.

Results

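The Wnt genes described here were 58 mouse genes, measured on 59 rows of the array out of 23410 rows with a gene symbol. They were picked by a rule on gene symbols. The rule took every Wnt ligand, Frizzled receptor (Fzd), secreted Frizzled-related protein (Sfrp), Dickkopf inhibitor (Dkk) and R-spondin (Rspo), and added a short list of co-receptors, secretion factors, intracellular components and feedback genes. *Wnt4* had 2 rows, and the brighter one stands for the gene. *Tcf7* was on the list but is not analysed here. By role the members were 19 ligands, 2 ligand secretion factors, 12 receptors and co-receptors, 9 secreted inhibitors, 6 R-spondins and receptor turnover factors, 3 members of the destruction complex or β-catenin itself, 3 TCF/LEF factors and 4 feedback genes.

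All cultures were neural progenitors made from R1 mouse embryonic stem (ES) cells and taken on Day 4 of monolayer differentiation in N2B27, a serum-free medium. There were 4 *Sox3* null cultures, in which GFP takes the place of the only *Sox3* exon, and 4 control cultures of a line with a conditional *Sox3* allele that the methods call wild type. For each genotype 2 cultures came from differentiation batch 2 and 2 from batch 1, and each culture had its own Affymetrix Mouse Gene 1.0 ST array. The methods state that the ES cells were kept on irradiated embryonic fibroblasts, whereas the sample notes give gelatin-coated plates. Each genotype was carried by its own ES cell line, so an effect of *Sox3* and a difference between these lines cannot be told apart. *Sox3* itself averaged 8.50 in *Sox3* null cultures and 9.81 in control cultures on the log2 scale, a difference of -1.31. Array medians lay between 7.63 and 7.70, no pair of arrays was identical, and the lowest correlation between 2 arrays was 0.9942. All 8 neural progenitor markers examined (*Sox1*, *Sox2*, *Pax6*, *Nes*, *Vim*, *Fabp7*, *Zic1* and *Hes5*) had signals above the median row. So did 7 of 8 pluripotency markers and all 6 neuronal markers, so these signals do not show how pure the cultures were.

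Wnt ligands are lipid-modified secreted proteins. They bind a Frizzled receptor together with LRP5 or LRP6, which stops the destruction complex (AXIN, APC and its kinases) from marking β-catenin for degradation. β-catenin then enters the nucleus and works with TCF/LEF factors on target genes, several of which (*Axin2*, *Znrf3*, *Rnf43*, *Nkd1*, *Dkk1*) encode inhibitors of the same pathway. In the early embryo Wnt signalling promotes the primitive streak and posterior fates, and the anterior neural plate forms where secreted inhibitors hold it low. Array signals do not allow levels to be compared between genes, and a dim row does not show that a gene was silent. With that limit, 32 of the 58 members had a mean signal above the median row (7.67), among them all 12 receptors but 2 of the 19 ligands (*Wnt8a* and *Wnt4*).

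Promoters are shown for members whose RNA differed between genotypes (*Sfrp5*, *Fzd10*) or batches (*Dkk1*, *Sp5*). Each window runs from 250 bases before to 50 bases after the gene's start, 5′ to 3′ on the gene's strand, from the RefSeq table on GRCm38.p6. Capitals mark the letters CTTTGAT (a TCF/LEF core) or CTTTGTT and CATTGTT (SOX cores), searched on both strands. The first 2 motifs share the letters CTTTG, so a match does not show which kind of factor binds there, if any. Other forms of these cores were not searched for. *Sfrp5* lies at chr19:42202203-42202502 on the minus strand, *Fzd10* at chr5:128600856-128601155 on the plus strand, *Dkk1* at chr19:30549447-30549746 on the minus strand and *Sp5* at chr2:70474673-70474972 on the plus strand. *Dkk1* and *Sp5* were picked for display after their matches had been seen.
Sfrp5: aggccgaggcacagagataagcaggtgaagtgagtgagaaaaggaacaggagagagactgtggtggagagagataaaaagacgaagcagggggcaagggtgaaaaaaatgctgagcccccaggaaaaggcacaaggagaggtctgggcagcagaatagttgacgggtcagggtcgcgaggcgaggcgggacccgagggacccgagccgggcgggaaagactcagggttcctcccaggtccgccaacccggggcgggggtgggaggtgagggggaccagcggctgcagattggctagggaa
Fzd10: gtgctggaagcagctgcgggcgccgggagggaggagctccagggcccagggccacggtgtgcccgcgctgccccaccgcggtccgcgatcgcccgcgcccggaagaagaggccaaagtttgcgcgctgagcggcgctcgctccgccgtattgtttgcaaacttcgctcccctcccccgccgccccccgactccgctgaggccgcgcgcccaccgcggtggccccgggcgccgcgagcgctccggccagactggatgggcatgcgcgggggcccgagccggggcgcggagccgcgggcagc
Dkk1: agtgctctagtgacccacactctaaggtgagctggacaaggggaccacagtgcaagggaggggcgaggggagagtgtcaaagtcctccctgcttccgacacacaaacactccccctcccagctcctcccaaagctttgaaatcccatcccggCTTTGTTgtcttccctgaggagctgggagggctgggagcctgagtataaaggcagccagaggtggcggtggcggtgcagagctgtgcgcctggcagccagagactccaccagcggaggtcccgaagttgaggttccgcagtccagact
Sp5: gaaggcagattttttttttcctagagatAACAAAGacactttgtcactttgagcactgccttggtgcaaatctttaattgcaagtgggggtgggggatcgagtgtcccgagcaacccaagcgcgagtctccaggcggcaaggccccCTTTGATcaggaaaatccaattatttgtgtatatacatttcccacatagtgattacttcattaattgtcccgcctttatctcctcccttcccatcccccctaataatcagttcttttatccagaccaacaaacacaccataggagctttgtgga

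In the *Sp5* window CTTTGAT began at base 147 and the reverse complement of CTTTGTT at base 29, and in the *Dkk1* window CTTTGTT began at base 153. The *Sfrp5* and *Fzd10* windows, and likewise those of *Sfrp2* and *Fzd9*, held none of the 3 motifs, which says only that these letters are not in these windows. A window was found for 38 of the 58 members. Of those, 7 (*Sp5*, *Dkk1*, *Fzd7*, *Tcf7l2*, *Wnt3*, *Wnt5b* and *Wnt11*) held at least 1 motif, and 12.7% of all 32851 windows did. CTTTGAT was found for 3 member genes and in 3.73% of all windows, CTTTGTT for 5 and in 5.85%, and CATTGTT for 1 and in 3.78%. Members were counted by gene and the percentages by window. GC content was 61.3% for *Sfrp5*, 77.7% for *Fzd10*, 60.7% for *Dkk1* and 45.0% for *Sp5*, against a median of 52.7% over all windows.

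Loss of *Sox3* was first compared with control over the whole set, with batch as a term. *Wnt8a*, a posteriorising ligand, was lower in *Sox3* null cultures, and the secreted inhibitors *Sfrp5* and *Sfrp2* and the receptors *Fzd10* and *Fzd9* were higher. None of the intracellular components or feedback genes passed the test. A gene passed when limma's Benjamini-Hochberg adjusted p, taken over all 23410 rows, was 0.05 or below, and it was called when it also changed at least 1.4-fold. Of the 58 members, 5 passed, beside 1.55% of all rows. The 4 that were higher stand beside 1.15% of all rows, and the 1 that was lower beside 0.393%. *Wnt8a* and *Sfrp5* were called, beside 0.431% of all rows. At an unadjusted p under 0.05 there were 12 members, beside 13.1% of all rows. The median log2 fold change (*Sox3* null over control) of the 58 members was -0.02, against 0.00 for all rows, with 25 members above 0 and 33 below. For 55 members the 95% interval lay inside a 1.4-fold change in either direction, as it did for 22971 of all 23410 rows. The 55 members included all 26 at or below the median signal. For such dim rows the interval describes the array signal and does not bound the change in RNA. Fewer cells of a type and less RNA per cell cannot be told apart in these bulk samples.

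**Figure D1:**
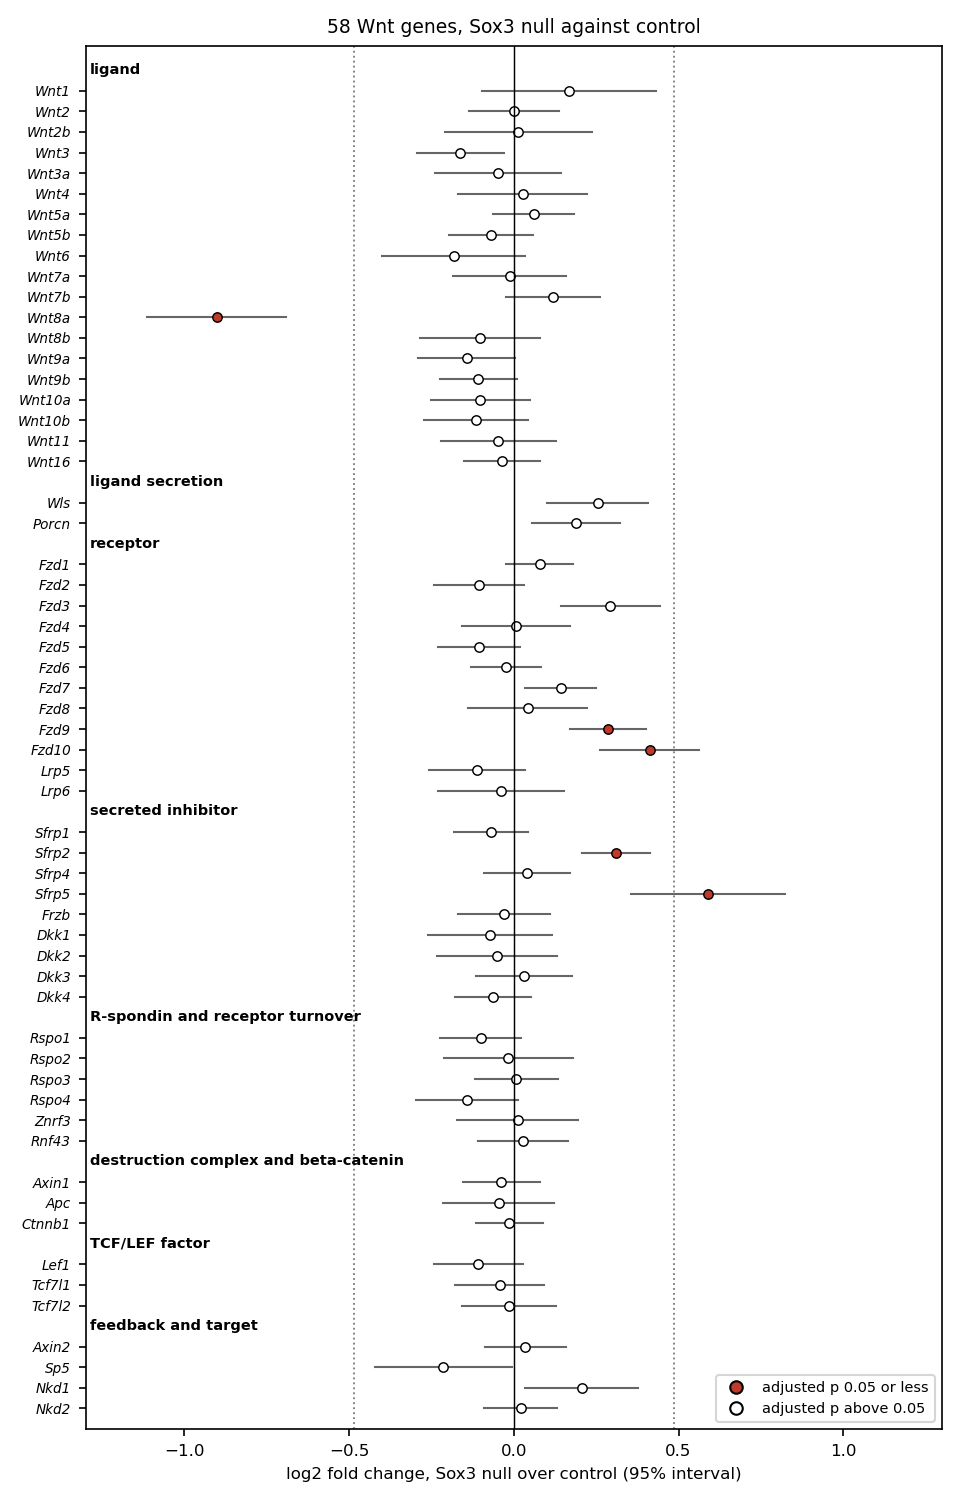
Log2 fold change of the 58 Wnt genes in *Sox3* null over control cultures, with 95% intervals, grouped by role. Filled points are the 5 genes with an adjusted p of 0.05 or below, and dotted lines mark a 1.4-fold change. Only *Wnt8a* and *Sfrp5* lie beyond a dotted line, and the genes of the intracellular and feedback groups lie between -0.21 and 0.21.

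Among the ligands, *Wnt8a* stood apart. Its log2 signals in *Sox3* null cultures were 9.10 and 9.26 in batch 2 and 7.90 and 8.19 in batch 1, against 9.89 and 9.84 in batch 2 and 9.14 and 9.20 in batch 1 in control cultures. The null arrays lay below the controls within each batch, but the null arrays of batch 2 reached the controls of batch 1. *Wnt8a* averaged 8.61 ± 0.671 in *Sox3* null cultures and 9.52 ± 0.403 in control cultures (SD, n = 4 each). The log2 fold change was -0.90 (SE 0.10, 95% interval -1.12 to -0.69, adjusted p = 0.00112), which is 1.87-fold lower. It was -0.68 in batch 2 and -1.12 in batch 1. Adjusted p was 0.117 in a plain linear model with each gene's own variance and 0.560 without the batch term.

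The other 18 ligands did not pass, and their log2 fold changes ran between -0.18 (*Wnt6*) and 0.17 (*Wnt1*). *Wnt3*, a ligand of the early streak, had the smallest p among them, with a fold change of -0.16 (adjusted p = 0.270). *Wnt9a* was at -0.14 and *Wnt9b* at -0.11. *Wnt7a* and *Wnt7b*, expressed in the developing forebrain, were at -0.01 and 0.12. Both factors that Wnt-producing cells need for secretion had higher values in *Sox3* null cultures without passing. *Wls*, the carrier of Wnt proteins to the cell surface, was at 0.25 (SE 0.07, adjusted p = 0.119), and *Porcn*, the enzyme that adds the lipid, at 0.19 (SE 0.06, adjusted p = 0.198).

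Of the 12 receptors and co-receptors, *Fzd10* and *Fzd9* rose and none fell. Frizzleds are the 7-pass membrane receptors of Wnt proteins. *Fzd10* had signals of 10.05 and 10.05 in batch 2 and 10.41 and 10.40 in batch 1 in *Sox3* null cultures, against 9.41 and 9.54 in batch 2 and 10.16 and 10.14 in batch 1 in control cultures. The genotypes separated within both batches, while null arrays of batch 2 lay below controls of batch 1. *Fzd10* rose by 0.41 on the log2 scale (SE 0.07, adjusted p = 0.0130), which is 1.33-fold, at 0.57 in batch 2 and 0.26 in batch 1. *Fzd9* had signals of 8.71 and 8.69 in batch 2 and 9.42 and 9.31 in batch 1 in *Sox3* null cultures, against 8.40 and 8.47 in batch 2 and 9.12 and 9.001 in batch 1 in control cultures. It too separated by genotype only within a batch. *Fzd9* rose by 0.29 (SE 0.05, adjusted p = 0.0216), or 1.22-fold, and its adjusted p went above 0.05, up to 0.0843, without *Sox3* null replicate 1, 3 or 4 or control replicate 1, 2 or 3. For *Fzd9* it was 0.124 in the plain linear model and 0.886 without the batch term. *Fzd10* kept an adjusted p of 0.0470 or below whichever array was left out, but had 0.178 in the plain linear model and 0.703 without the batch term.

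*Fzd3*, which takes part in axon guidance and planar polarity, just missed the test. Its signals were 11.29 and 11.47 in batch 2 and 11.46 and 11.45 in batch 1 in *Sox3* null cultures, against 11.08 and 11.28 in batch 2 and 11.09 and 11.04 in batch 1 in control cultures. The 2 groups did not overlap. The log2 fold change was 0.29 (SE 0.07) with an adjusted p of 0.0669. It was 0.0487 with the replicate number as a block, 0.0436 with dim rows left out and 0.0283 with an intensity trend in the variance. With 1 array left out it stayed above 0.05 in 6 of 8 fits, up to 0.205, and it was 0.277 in the plain linear model. *Fzd7* had 0.14 (adjusted p = 0.229) and *Fzd5*, an eye-field receptor, -0.10 (adjusted p = 0.479). The co-receptors *Lrp5* and *Lrp6* had -0.11 and -0.04, and the other 5 Frizzleds ran between -0.11 (*Fzd2*) and 0.08 (*Fzd1*).

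Secreted inhibitors of the Sfrp family bind Wnt proteins outside the cell. *Sfrp2*, which neural progenitors express, had signals of 12.92 and 12.90 in batch 2 and 12.99 and 13.01 in batch 1 in *Sox3* null cultures, against 12.60 and 12.65 in batch 2 and 12.68 and 12.63 in batch 1 in control cultures. Every null array was above every control array, and the arrays of a genotype differed little. *Sfrp2* averaged 12.95 ± 0.0516 in *Sox3* null cultures and 12.64 ± 0.0333 in control cultures (SD, n = 4 each). The log2 fold change was 0.31 (SE 0.05, adjusted p = 0.00817), a 1.24-fold rise, at 0.28 in batch 2 and 0.34 in batch 1. It passed with any 1 array left out, at an adjusted p of 0.0368 or below, and had an adjusted p of 0.0578 without the batch term.

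*Sfrp5*, a related inhibitor, had signals of 8.48 and 8.65 in batch 2 and 9.18 and 8.92 in batch 1 in *Sox3* null cultures, against 8.11 and 8.34 in batch 2 and 8.18 and 8.24 in batch 1 in control cultures. The groups did not overlap, and the null arrays of batch 1 were the highest. *Sfrp5* averaged 8.81 ± 0.308 in *Sox3* null cultures and 8.22 ± 0.0946 in control cultures (SD, n = 4 each). The log2 fold change was 0.59 (SE 0.11, 95% interval 0.36 to 0.82, adjusted p = 0.0199), which is 1.51-fold, at 0.34 in batch 2 and 0.84 in batch 1. Adjusted p rose above 0.05, up to 0.0807, without *Sox3* null replicate 2 or 4 or control replicate 1, 2 or 3, and was 0.154 with all 35556 rows in the fit and 0.263 in the plain linear model. The remaining 7 inhibitors ran between -0.07 (*Dkk1*) and 0.04 (*Sfrp4*). *Sfrp1*, also expressed in neural progenitors, was at -0.07, and *Frzb*, another Wnt-binding inhibitor, at -0.03.

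**Figure D2:**
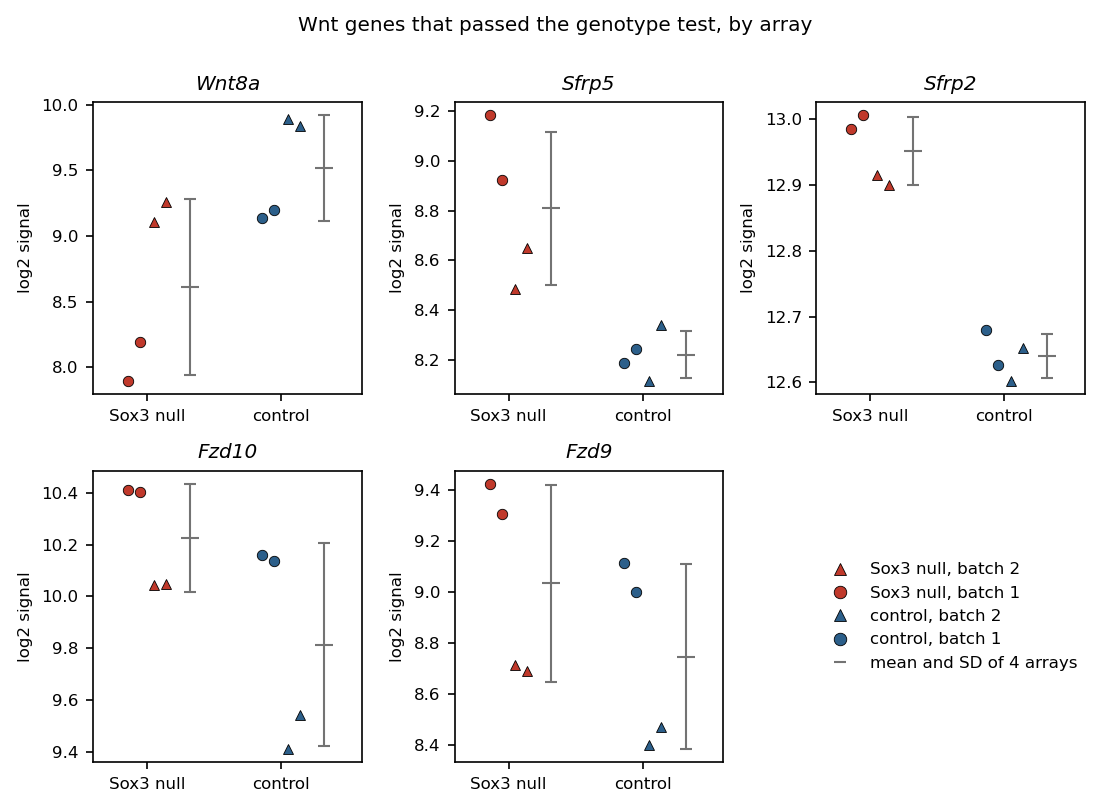
Log2 signal of the 5 Wnt genes that passed the genotype test, 1 point per array, with *Sox3* null arrays left of control arrays, triangles for batch 2 and circles for batch 1. Bars give the mean and SD of the 4 arrays of a genotype. *Sfrp2* and *Sfrp5* separate completely, while *Wnt8a*, *Fzd10* and *Fzd9* separate by genotype within each batch.

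The nuclear and feedback genes showed no member past the test in limma or in the plain linear model, and *Sp5* and *Nkd1* had an unadjusted p under 0.05. *Axin2*, a scaffold of the destruction complex and a widely used readout of β-catenin signalling, had 8.93 and 9.02 in batch 2 and 9.33 and 9.32 in batch 1 in *Sox3* null cultures, against 8.89 and 8.81 in batch 2 and 9.37 and 9.40 in batch 1 in control cultures. The null arrays lay below the controls in batch 1 and above them in batch 2, by small margins. Its log2 fold change was 0.04 (SE 0.06, 95% interval -0.09 to 0.16, adjusted p = 0.861). *Sp5*, a transcription factor induced by Wnt signalling, was at -0.21 (SE 0.09, adjusted p = 0.366), and *Lef1*, a TCF/LEF factor that is itself a target, at -0.11 (SE 0.06, adjusted p = 0.513). *Nkd1*, which binds Dishevelled and dampens the signal, was at 0.21 (SE 0.08, adjusted p = 0.280), and its relative *Nkd2* at 0.02. *Dkk1*, which blocks the LRP co-receptors, was at -0.07 (adjusted p = 0.798). *Znrf3* and *Rnf43*, ubiquitin ligases that remove Frizzled from the membrane, were at 0.01 and 0.03. Among the 4 R-spondins, which hold those ligases back, *Rspo4* had the lowest value at -0.14 and *Rspo3* the highest at 0.01. *Axin1*, *Apc* and *Ctnnb1* were at -0.04, -0.05 and -0.01, and *Tcf7l1* and *Tcf7l2* at -0.04 and -0.02.

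Genes of the pathway outside the rule were read in the same fit. Of 55 other components (Dishevelled and kinase genes, Groucho co-repressors, LGR receptors, planar polarity genes, glypicans and further inhibitors), 2 were higher in *Sox3* null cultures, beside 1.15% of all rows, and 0 lower, with a median of -0.01. *Shisa3*, of a family whose *Xenopus* founder retains Frizzled inside the cell, was 0.37 higher (SE 0.06, adjusted p = 0.00929, but 0.0687 with all rows in the fit, 0.121 in the plain linear model and 0.615 without the batch term), and *Apcdd1*, a membrane inhibitor, 0.30 higher (SE 0.05, adjusted p = 0.0210). *Apcdd1* had an adjusted p above 0.05, up to 0.0825, without *Sox3* null replicate 1 or 4 or control replicate 1, 2 or 3. Its adjusted p was 0.101 with all rows in the fit and 0.130 in the plain linear model, and it did not pass without the batch term. The *Shisa3* row lay below the median signal. Other inhibitors on the list did not pass and went both ways. Some had values below 0, such as *Notum* at -0.19 and *Cer1* at -0.17, and some above 0, such as *Draxin* at 0.16 and *Dact1* at 0.12. Of 14 target genes measured, 1 fell, beside 0.393% of all rows, and 0 rose, beside 1.15%. It was *Cyp26a1*, which degrades retinoic acid, at -0.33 (SE 0.06, adjusted p = 0.0154), which did not pass (up to 0.0692) without control replicate 1, 2 or 3.

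Markers of other states moved beside these values, and their part in the Wnt results was not tested. The counts of markers that passed stand beside 1.15% of all rows higher and 0.393% lower in *Sox3* null cultures. Of the 8 neural progenitor markers, 2 (*Nes* at 0.49 and *Zic1* at 0.36) passed as higher in *Sox3* null cultures. All 8 were above 0, with a median of 0.19, and 6 had an unadjusted p under 0.05, beside 13.1% of all rows. The log2 of the summed signal of all 8 ran between 15.22 and 15.25 in *Sox3* null cultures and between 15.02 and 15.06 in control cultures. Of 6 neuronal markers, 2 (*Map2* and *Neurod4*) were higher, with sums between 12.49 and 12.60 in *Sox3* null cultures and between 12.44 and 12.71 in control cultures. Of these 6, 5 were above 0 and *Stmn2* was at -0.17, and the mean log2 signal over the 6 ran between 9.203 and 9.517 in *Sox3* null cultures and between 9.085 and 9.201 in control cultures. Of 8 pluripotency markers, *Nanog* was lower at -0.37, with sums between 12.72 and 13.20 in *Sox3* null cultures and between 12.93 and 13.17 in control cultures. Of these 8, 5 were below 0 and 3 above, with a median of -0.08. *Dppa5a*, which weighs most in the sum, was at 0.17. Of 9 primitive streak, mesoderm and endoderm markers none passed (1 had an unadjusted p under 0.05), 8 were below 0, and the sums ran between 10.20 and 10.49 in *Sox3* null cultures and between 10.29 and 10.67 in control cultures. Of 8 fibroblast markers, *Twist1* and *Prrx1* were higher and *Thy1* lower, with sums between 10.41 and 10.71 in *Sox3* null cultures and between 10.42 and 10.70 in control cultures.

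The 2 differentiation batches were independent runs of the same protocol, balanced over genotype. *Wnt1*, *Dkk1*, *Fzd8*, *Znrf3*, *Fzd9*, *Frzb* and *Fzd10* were lower in batch 2 by at least 1.4-fold, and *Wnt8a* was higher. Of the 58 members 20 passed. The 19 that were lower in batch 2 stand beside 9.35% of all rows, and the 1 that was higher beside 10.9%. At the 1.4-fold limit 8 members were called, beside 2.49% of all rows, and the 7 lower ones stand beside 1.47%. The median log2 fold change (batch 2 over batch 1) was -0.11 for the members and 0.00 for all rows, and 47 members lay below 0. The members that passed lower comprised 7 ligands, 5 receptors, 2 secreted inhibitors, 2 TCF/LEF factors, 2 feedback genes and *Znrf3*, and none of *Axin1*, *Apc* and *Ctnnb1* passed.

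**Figure D3:**
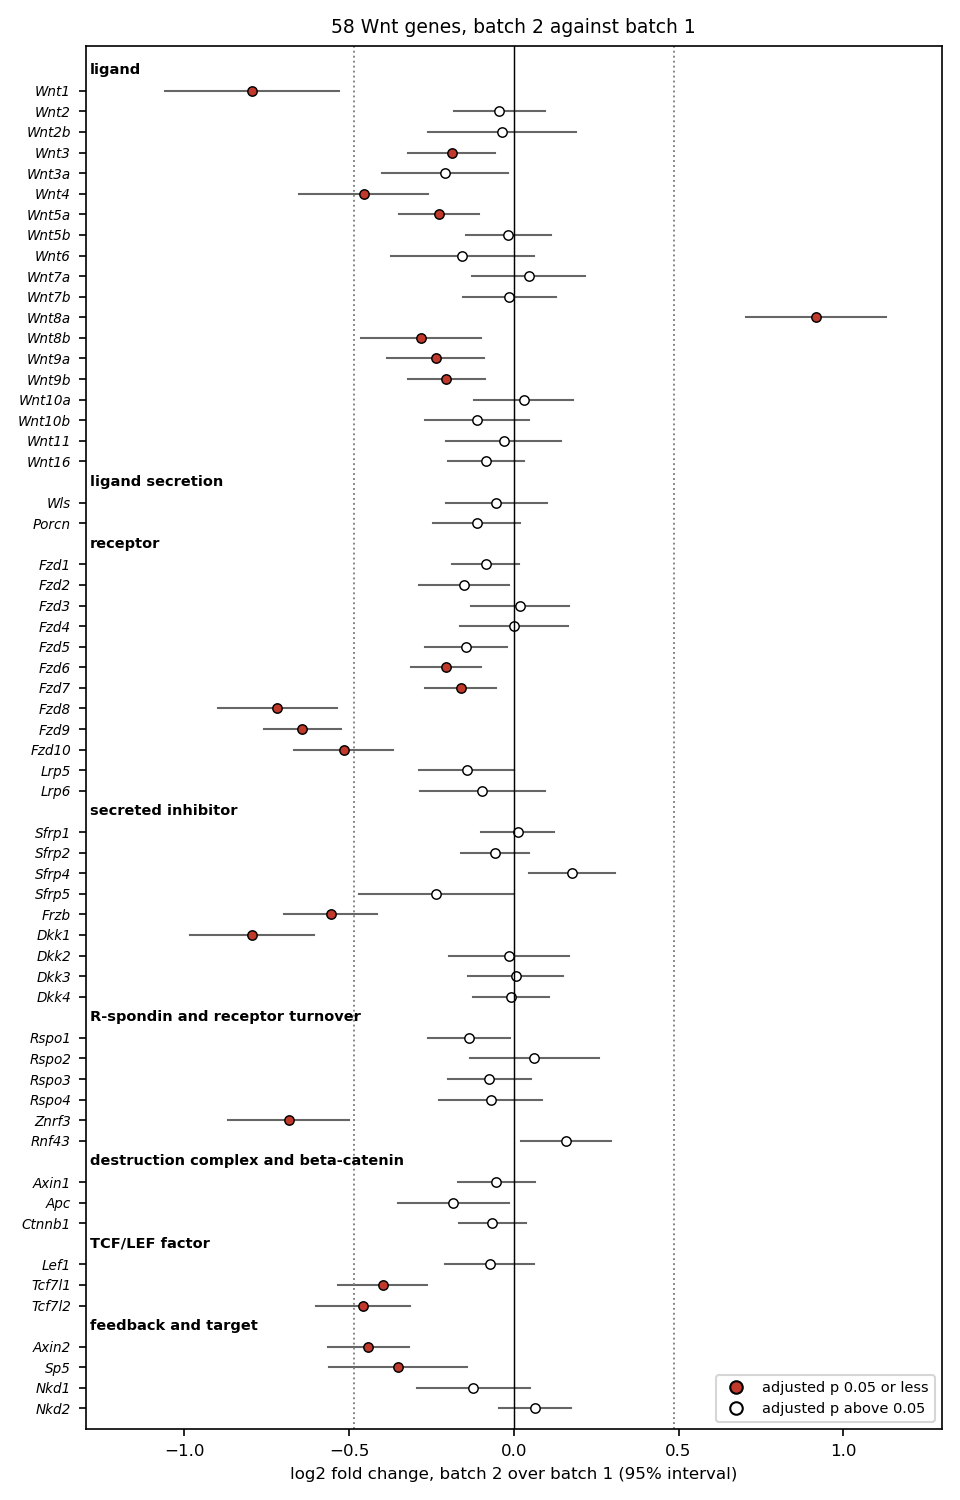
Log2 fold change of the 58 Wnt genes in batch 2 over batch 1, with 95% intervals, grouped by role. Filled points are the 20 genes with an adjusted p of 0.05 or below, and dotted lines mark a 1.4-fold change. All filled points but that of *Wnt8a* lie left of 0.

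Of the 8 feedback genes named here, *Axin2*, *Znrf3*, *Dkk1* and *Sp5* fell in batch 2 and 4 did not pass. *Axin2* had 8.93 and 9.02 in *Sox3* null and 8.89 and 8.81 in control cultures of batch 2, against 9.33 and 9.32 in *Sox3* null and 9.37 and 9.40 in control cultures of batch 1. Each batch 2 array lay below each batch 1 array. The log2 fold change was -0.44 (SE 0.06, adjusted p = 4.26e-04), at -0.35 in *Sox3* null and -0.53 in control cultures. *Znrf3* had 8.77 and 9.05 in *Sox3* null and 8.73 and 9.05 in control cultures of batch 2, against 9.52 and 9.65 in *Sox3* null and 9.51 and 9.65 in control cultures of batch 1, a change of -0.68 (SE 0.08, adjusted p = 3.51e-04). The batches of *Znrf3* did not overlap either, and both genotypes lay at nearly the same values. *Dkk1* had 7.38 and 7.31 in *Sox3* null and 7.34 and 7.20 in control cultures of batch 2, against 8.10 and 7.88 in *Sox3* null and 8.34 and 8.08 in control cultures of batch 1, a change of -0.79 (SE 0.09, adjusted p = 1.88e-04). *Sp5* was lower by a smaller margin at -0.35 (SE 0.09, adjusted p = 0.0231), with batches that overlapped, and its adjusted p was up to 0.0744 without *Sox3* null replicate 2 or 4 or control replicate 1, 2 or 3. *Nkd1*, *Lef1* and *Nkd2* did not pass, at -0.12, -0.07 and 0.06, and *Rnf43* was at 0.16 (adjusted p = 0.0989).

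Of the 10 Frizzleds, *Fzd6*, *Fzd7*, *Fzd8*, *Fzd9* and *Fzd10* fell in batch 2. *Fzd8* had 8.38 and 8.61 in *Sox3* null and 8.18 and 8.49 in control cultures of batch 2, against 9.11 and 9.09 in *Sox3* null and 9.18 and 9.16 in control cultures of batch 1. The batches did not overlap, and the change was -0.72 (SE 0.08, adjusted p = 2.48e-04). *Fzd9* changed by -0.64 (SE 0.05, adjusted p = 5.41e-05) and *Fzd10* by -0.52 (SE 0.07, adjusted p = 5.56e-04), so that both genes were higher in *Sox3* null cultures and lower in batch 2. *Fzd6* and *Fzd7* passed at -0.21 and -0.16. *Fzd2* and *Fzd5* had values close to that of *Fzd7*, at -0.15 (adjusted p = 0.114) and -0.14 (adjusted p = 0.101), and did not pass. *Fzd1* was at -0.09, *Fzd3* at 0.02 and *Fzd4* at 0.00.

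Of the ligands, *Wnt1*, a midbrain and dorsal neural tube signal, had 6.91 and 6.60 in *Sox3* null and 6.88 and 6.67 in control cultures of batch 2, against 7.93 and 7.54 in *Sox3* null and 7.24 and 7.53 in control cultures of batch 1. The batches did not overlap, and the change was -0.79 (SE 0.12, adjusted p = 0.00113). *Wnt4* was at -0.46 (-0.17 on its dimmer row, which did not pass), and the other lower ligands (*Wnt8b*, *Wnt9a*, *Wnt5a*, *Wnt9b* and *Wnt3*) lay between -0.28 and -0.19. *Wnt8a* went the other way at 0.92 (SE 0.10, adjusted p = 1.74e-04), with 1.14 in *Sox3* null and 0.70 in control cultures. *Wnt8a* thus was lower in *Sox3* null cultures and higher in batch 2, by changes of nearly the same size. *Frzb* had -0.56 (SE 0.06, adjusted p = 2.60e-04). *Tcf7l2*, a TCF/LEF factor, had -0.46 (SE 0.06), and *Tcf7l1*, mainly a repressor in ES cells, -0.40 (SE 0.06).

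**Figure D4:**
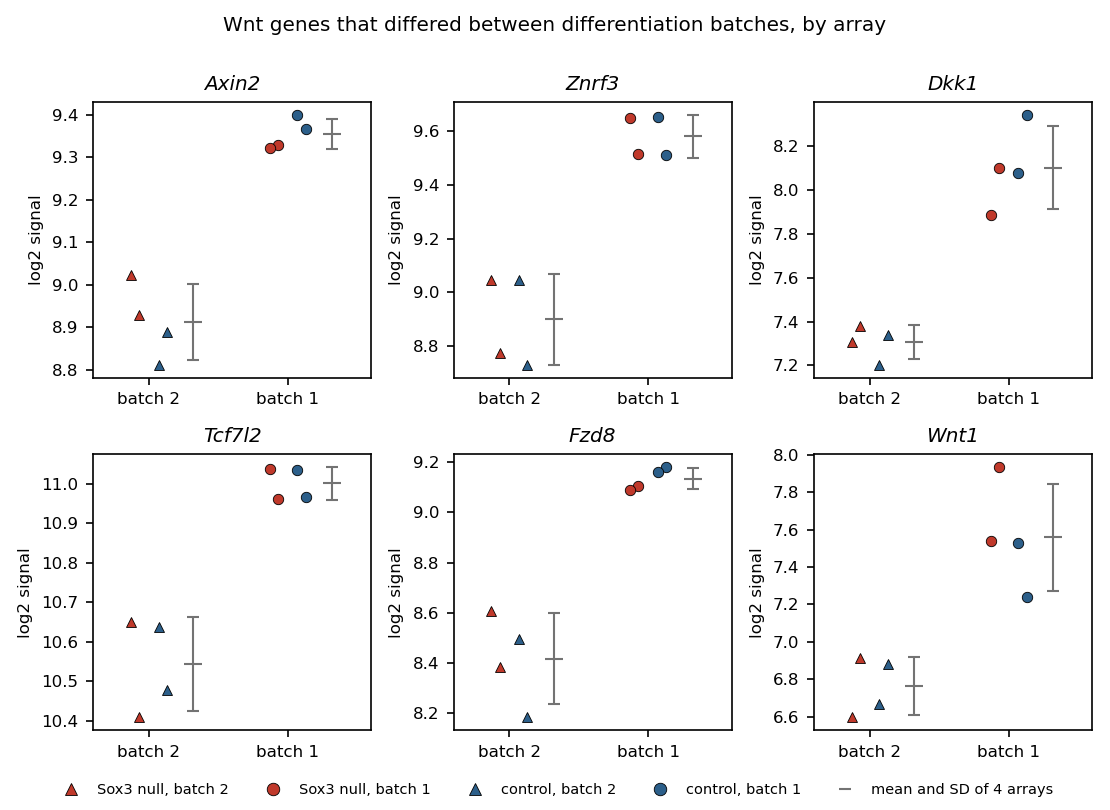
Log2 signal of 6 Wnt genes that were lower in batch 2, 1 point per array, with batch 2 left of batch 1 and the genotypes in different colours. Bars give the mean and SD of the 4 arrays of a batch. In all 6 genes every batch 2 array, of either genotype, lies below every batch 1 array.

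Wnt genes outside the rule moved with the batch as well. Of the 55 other components, 21 were lower in batch 2 (9.35% of all rows were) and 0 higher (10.9% of all rows were), with a median of -0.13. The largest falls were those of *Gpc4*, a glypican that binds Wnt proteins at the cell surface, at -0.96, and *Celsr1*, a planar polarity cadherin, at -0.85. Of the 14 targets 4 were lower (*Myc* at -0.73, *Msx2* at -0.65, *Cdx2* at -0.61 and *Msx1* at -0.59), and *Cyp26a1* was higher at 0.82, the same direction as *Wnt8a* in both comparisons. Of the 9 primitive streak, mesoderm and endoderm markers 3 (*Gata6* at -0.61, *Eomes* at -0.55 and *Foxa2* at -0.27) were lower in batch 2. The log2 of their summed signal ran between 10.20 and 10.31 in batch 2 and between 10.34 and 10.67 in batch 1. Among the neural progenitor markers 3 were lower and 1 higher in batch 2, with sums between 15.02 and 15.25 in batch 2 and between 15.05 and 15.24 in batch 1. Of the 8 fibroblast markers all were below 0 and 2 (*Col1a1* at -0.31 and *Col1a2* at -0.50) passed, with sums between 10.41 and 10.44 in batch 2 and between 10.53 and 10.71 in batch 1. Of the 8 pluripotency markers 2 were higher in batch 2 (*Dppa5a* at 0.52 and *Tdgf1* at 0.24) and 3 lower, with sums between 12.93 and 13.20 in batch 2 and between 12.72 and 12.97 in batch 1. *Dppa5a* weighs most in this sum, whereas 5 of the 8 markers were below 0, with a median of -0.11. Of the 6 neuronal markers 2 were higher and 1 lower, with sums between 12.44 and 12.60 in batch 2 and between 12.49 and 12.71 in batch 1. Of these 6, 5 were above 0, with a median of 0.21. *Stmn2*, which weighs most in the sum, was at -0.27. The part of these markers in the Wnt differences was not tested.

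Whether the effect of *Sox3* loss on the Wnt genes differed between batches was asked with a genotype by batch term. No member passed in limma, where the smallest adjusted p was 0.9997, and 0 passed in the plain linear model. At an unadjusted p under 0.05 there were 4 members (*Sfrp5*, *Wnt8a*, *Fzd10* and *Dkk2*), beside 3.05% of all rows. For *Sfrp5* and *Wnt8a* the effect was larger in size in batch 1, and for *Fzd10* in batch 2. *Dkk2* had 0.12 in batch 2 and -0.22 in batch 1. Each batch held 2 arrays of each genotype, and none of these differences passed after adjustment over all rows.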

How the data were processed

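The authors normalized and summarised the arrays and deposited 1 log2 signal per transcript cluster and sample. The submitters' processing notes name Partek, and its normalization, like the genome build, is not stated in these sources. Symbols came from the platform annotation (21789 of 35556 rows with 1 symbol, 1621 with several, 12146 unnamed), and no symbol rule matched a row with several. A limma model (version 3.58.1, R 4.3.3) of genotype plus batch was run on the 23410 named rows with empirical Bayes variances and Benjamini-Hochberg adjustment. Batch was also a factor in the ANOVA of the methods, which do not state moderated variances. The plain linear model is the alternative nearest to it. Precision is limited by the number of arrays. The residual SD had a median of 0.0869 on the log2 scale. The paper calls the cultures biological replicates. Arrays of the same number correlated in their deviations from the group mean (0.392 to 0.678). By the labels replicates 1 and 2 share a batch and so do 3 and 4, and the part of batch in these correlations was not tested. Within a batch the correlations of same-numbered arrays were -0.324 and 0.305.

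Members, gene lists and tests were chosen with earlier results of these data known. Named genes are the members that passed the genotype test, up to 16 with the smallest genotype p, up to 10 with the smallest batch p, and the feedback genes *Axin2*, *Sp5*, *Lef1*, *Nkd1*, *Nkd2*, *Dkk1*, *Znrf3* and *Rnf43*. Others were named after their values were seen, to mark ranges. In simulated arrays of this design over 23410 rows, the genotype test recovered 89% of 100 rows changed by 0.5 and 100% of 100 changed by 1 on the log2 scale, and 5.03% of rows that passed were unchanged. The simulated noise was normal and independent between arrays, so these rates need not hold for the real arrays. The alternatives were another set of rows, a filter on dim rows, quantile normalization, other variance models, no batch term, batch or replicate number as a block, each batch or genotype alone, the mean of a gene's rows, and leaving out each array.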

Additional observations from a re-analysis of the deposited data

Results flagged for a closer look

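In 3 of 52 groups of 4 arrays, 1 array lay apart from the other 3 by the gap test of Dixon, which flags about 1 group in 20 by chance. *Fzd3* had 11.29 in *Sox3* null replicate 3 and between 11.45 and 11.47 in the other *Sox3* null arrays. *Fzd5* had 8.29 in *Sox3* null replicate 2 and between 8.06 and 8.09 in the other *Sox3* null arrays. *Lef1* had 9.07 in control replicate 3 and between 9.26 and 9.29 in the other control arrays.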

How the results depend on the processing

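Of the 58 members, 2 were called for genotype. The count was 1 with all rows of the table and in batch 1 alone, and 0 in batch 2 alone, in the plain linear model, without the batch term and with batch as a random block. It ran between 1 and 2 with 1 array left out, and was 1 without *Sox3* null replicate 2 or 4 or control replicate 1, 2 or 3. The 5 that passed became 2 with all rows, 1 in the plain model, in batch 1 alone and with the random block, and 0 in batch 2 alone and without the batch term. They ran between 3 and 6 with 1 array left out, with 3 without control replicate 1, 2 or 3. The 2 other components became 0 in those 6 alternatives, 4 with an intensity trend, and ran between 1 and 2 with 1 array left out (1 without *Sox3* null replicate 1 or control replicate 1, 2 or 3). The 1 target became 0 in the same 6, and also with dim rows left out, since that filter removes *Cyp26a1* itself. It ran between 0 and 1 with 1 array left out (0 without control replicate 1, 2 or 3). The cause of the other changes was not tested.

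With the replicate number as a block in place of the batch term, 2 members were called and 6 passed. *Fzd3* then passed at an adjusted p of 0.0487, and no other named gene changed sides of the threshold. The 20 members that passed between batches became 13 with dim rows left out, a filter that removes 7 of the 20, and 12 in *Sox3* null arrays alone and 12 in control arrays alone, and the 8 called stayed between 7 and 10. *Sp5* no longer passed for batch in 8 of 14 alternatives.

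No result that passed changed sign among the named genes. The genotype change of *Znrf3* was -0.014 after quantile normalization, that of *Axin2* -0.057 in batch 1 alone, that of *Dkk1* 0.073 in batch 2 alone, and the batch change of *Nkd1* 0.024 in *Sox3* null arrays alone. With 1 array left out, the genotype changes ran between -0.13 and 0.0099 for *Dkk1*, -0.054 and 0.072 for *Znrf3*, -0.0052 and 0.068 for *Rnf43*, -0.0019 and 0.061 for *Axin2* and -0.0068 and 0.053 for *Nkd2*.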

Other observations

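Among the members, 4 pairs of ligand genes are neighbours on a chromosome, and the genes of a pair did not always hold the same values. *Wnt1* and *Wnt10b*, on chromosome 15, had batch changes (batch 2 over batch 1, log2) of -0.79 and -0.11. *Wnt9b* and *Wnt3*, on chromosome 11, had -0.21 and -0.19, and genotype changes (*Sox3* null over control) of -0.11 and -0.16. *Wnt3a* and *Wnt9a*, also on chromosome 11, had batch changes of -0.21 and -0.24. *Wnt6* and *Wnt10a*, on chromosome 1, had batch changes of -0.16 and 0.03.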
